A study of Arabidopsis thaliana with 12 samples.

Results

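The genes examined here encode the enzymes that turn plastid fatty acids into the jasmonate precursor OPDA and reduce it: the lipoxygenase genes LOX2, LOX3, LOX4 and LOX6, the allene oxide synthase gene AOS, the allene oxide cyclase genes AOC1, AOC2, AOC3 and AOC4, and the OPDA reductase gene OPR3. They were chosen by locus, as the known members of these enzyme steps, and all 10 were found among the 32833 loci of the deposited count table. RNA was sequenced in 12 libraries from roots of Arabidopsis thaliana Col-0 seedlings at 7 days after sowing. For the cut roots, seedlings were exposed for 1 h to 50 µM CNQX, a compound that blocks ionotropic glutamate receptors in animals, or to a mock solution. About 130 µm of tip was then removed, and about 100 µm of root just above the cut was taken at 30 min, 4 h, 14 h or 24 h, in 1 library per treatment and time. The uncut roots were kept for 14 h on plates with CNQX or mock, and about 100 µm of their tip was taken, in 2 libraries per treatment. All groups were of the same genotype, and the sources used here do not state whether CNQX was still present after the cut. Cut tissue lay above the removed tip and uncut tissue was the tip itself, so excision and position along the root cannot be told apart. Only the comparison at 14 h is matched in time with the uncut roots, which were kept for 14 h. At 30 min, 4 h and 24 h, excision cannot be told apart from this difference in time. Fewer cells of a type and less RNA per cell cannot be told apart either, since whole tissue was sequenced.

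Jasmonates are wound hormones. In plastids, lipoxygenases add oxygen to alpha-linolenic acid, allene oxide synthase and allene oxide cyclase convert the product to OPDA, and OPR3 reduces OPDA in peroxisomes before beta-oxidation shortens it to jasmonic acid. The isoleucine conjugate of jasmonic acid binds the receptor COI1, which leads to loss of JAZ repressors and frees MYC transcription factors, and many synthesis genes are themselves targets of this signal.

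The libraries held 1575446 to 3302325 counts (median 2122122). Levels are given as CPM, counts scaled to effective library size, and the floor of 3 counts stood for 0.875 to 1.91 CPM. One library, mock 24 h, stood apart, with 1.75% of its counts in ribosomal RNA genes, against 5.32% to 10.2% in the other 11. The summed level of 10 root tip markers was 53.1 to 172 CPM in cut roots, with 2 to 6 markers at 0, against 132 to 293 CPM in uncut tips, with at most 1 at 0. The root cap gene SMB was at 0 in 6 of 8 cut libraries and in none of the 4 uncut ones, while the stem cell niche gene WOX5 was at 0 in 3 of the 4 uncut libraries. Summed markers of photosynthetic tissue (9 genes) were 78.1 to 693 CPM at 14 h and 24 h, against 7.04 to 9.34 CPM in uncut tips, and those of differentiating endodermis (7 genes) were 115 to 571 CPM, against 10.2 to 17.0 CPM. At 30 min and 4 h these 2 sums were 5.09 to 11.96 CPM and 17.6 to 44.2 CPM. The labels do not say that replicates were separate cultures, so the p-values reflect only how these libraries varied.

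At 30 min after excision, 6 of the 8 members with enough counts to test rose above uncut tips and 0 fell, in edgeR's quasi-likelihood test with Benjamini-Hochberg adjustment. Of all 16820 genes tested, 4.43% were called, 3.23% higher and 1.2% lower. The members that rose were LOX3, LOX4, AOS, AOC2, AOC3 and OPR3, so every enzyme step had at least 1 of them. LOX3, LOX4 and AOC2 passed the count filter only through the 30 min libraries, with at most 4 counts in any other library. High levels at 30 min thus brought them into the test and favoured their calls, and the lipoxygenase step had no other call. The median log2 fold change of the 8, LOX3, LOX4 and AOC2 included, was 3.56, beside 0.00 for all genes. LOX2 and AOC1 had too few counts for the test. The summed level of all 10 genes was 1051 CPM in the CNQX library and 826 CPM in the mock library at 30 min, against 195 and 120.2 CPM in CNQX and 122 and 125 CPM in mock uncut tips.

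**Figure D1:**
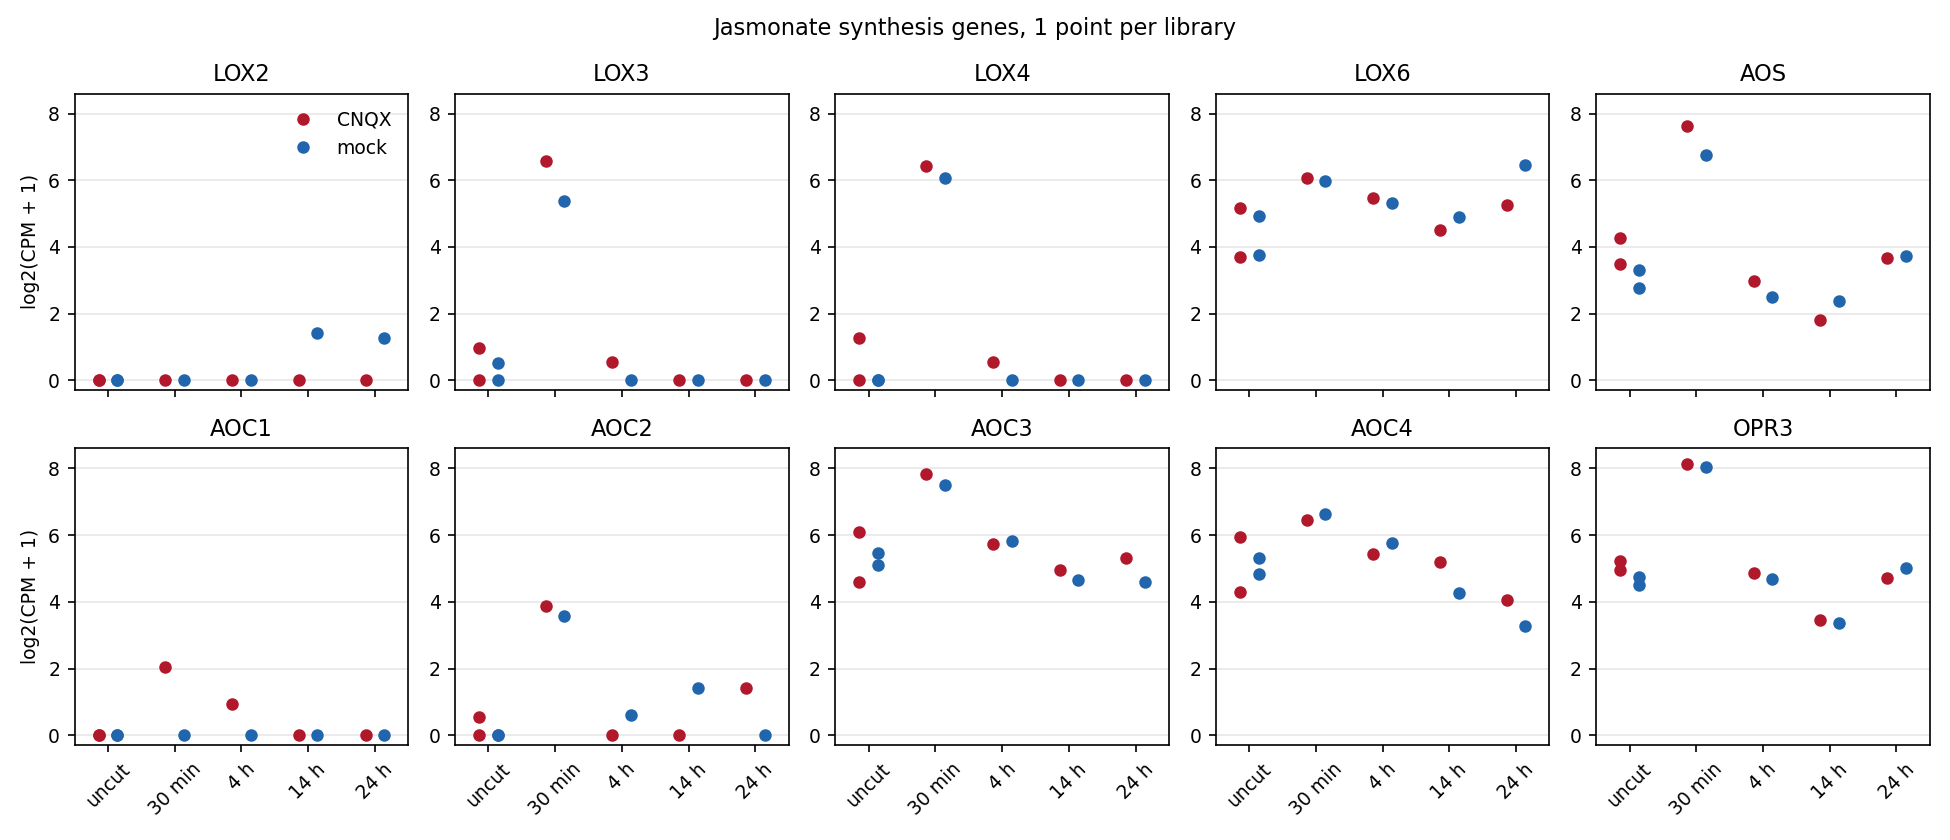
Level of each of the 10 genes in each of the 12 libraries, as log2(CPM + 1), by stage, with CNQX (red) left of mock (blue). LOX3 and LOX4 lie near 0 outside 30 min, whereas LOX6, AOS, AOC3, AOC4 and OPR3 were counted in all 12 libraries.

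Among the lipoxygenases, LOX3 (AT1G17420) and LOX4 (AT1G72520), which act together in flower fertility, were almost confined to 30 min. LOX3 had 239 counts in the CNQX library and 71 in the mock library at 30 min, against 0 and 2 in CNQX and 0 and 1 in mock uncut tips. LOX4 had 217 counts in CNQX and 117 in mock at 30 min, against 0 and 3 in CNQX and 0 and 0 in mock uncut tips. For both genes each 30 min library was far above every uncut library. LOX3 was 227-fold higher at 30 min than in uncut tips (95% exact counting interval 77.1 to 1108; edgeR adjusted p = 0.000372). LOX4 was 245-fold higher (83.1 to 1194; edgeR adjusted p = 0.000422). Counting intervals and floors throughout cover counting error only. DESeq2 did not call either gene (adjusted p = 0.246 for LOX3 and 0.286 for LOX4), and without either 30 min library neither was called in edgeR (adjusted p from 0.149 to 1). The sizes rest on 3 uncut counts per gene: without replicate 2 of the CNQX uncut tips the fitted log2 fold change was 9.07 for LOX3 and 10.42 for LOX4, against 7.38 and 8.44 with all libraries, and without replicate 2 of mock it was 8.42 for LOX3. Without the mock 30 min library LOX4 was at 7.77 and without the CNQX one at 9.13. Each of these fits left 1 library at 30 min and called fewer of all genes than the fit with all libraries.

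LOX6 (AT1G67560), the lipoxygenase reported as the main source of stress-induced jasmonate in roots, behaved differently from LOX3 and LOX4 in that it was present in uncut tips. It had 12.1 and 35.2 CPM in CNQX and 12.5 and 29.4 CPM in mock uncut tips. At 30 min it had 65.8 CPM in CNQX and 61.5 CPM in mock, and at 4 h 43.3 and 38.5 CPM. At 30 min both libraries lay above all 4 uncut ones, yet the change of 1.53 ± 0.46 (log2, SE) missed the threshold (edgeR adjusted p = 0.0807). It passed without replicate 2 of the CNQX uncut tips (adjusted p = 0.0448), the CNQX 24 h (0.0468) or the mock 24 h library (0.0477). In uncut tips replicate 1 of each treatment was low and replicate 2 high for LOX6. The summed xylem and phloem markers (7 genes) were split the same way, at 5.73 and 32.4 CPM in CNQX and 8.46 and 27.2 CPM in mock. So were the sums of root tip markers (132 and 293 CPM in CNQX, 152 and 203 CPM in mock) and of endodermis markers (10.2 and 16.4 CPM, 14.9 and 17.0 CPM). The photosynthetic sum had the reverse order (8.27 and 7.04 CPM in CNQX, 9.34 and 8.94 CPM in mock). The xylem and phloem sum was 116 and 290.1 CPM at 14 h in CNQX and mock, and 81.7 and 140.3 CPM at 24 h. At 14 h LOX6 was at 21.9 and 28.8 CPM, within the uncut range. The part of these tissues in the LOX6 levels was not tested. LOX2 (AT3G45140), which supplies most wound jasmonate in leaves, had 0 counts in 10 of 12 libraries and 4 counts in each of mock 14 h and mock 24 h, the libraries with the highest photosynthetic marker sums (280.4 and 693 CPM). The part of that tissue in the LOX2 counts was not tested.

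LOX3 and LOX4 together made up 73.1% of the lipoxygenase counts in the CNQX library at 30 min (exact 95% interval 69.4% to 76.5%; 456 of 624 counts) and 63.5% in the mock library (57.7% to 69.0%; 188 of 296). In uncut tips the share was 0 of 19 and 6.25% (5 of 80) in CNQX and 0 of 43 and 1.43% (1 of 70) in mock. At 4 h it was 2.06% (2 of 97) in CNQX and 0 of 75 in mock, and it was 0 in all 4 libraries at 14 h and 24 h. Taken as 3 counts of the total, a count of 0 allows a share of up to 15.8% for the 0 of 19 in uncut tips, 6.82% in CNQX at 14 h and 1.19% in mock at 24 h; the exact 95% upper limits are 17.6%, 8.04% and 1.45%. Outside 30 min, then, nearly all lipoxygenase counts of these genes were LOX6.

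**Figure D2:**
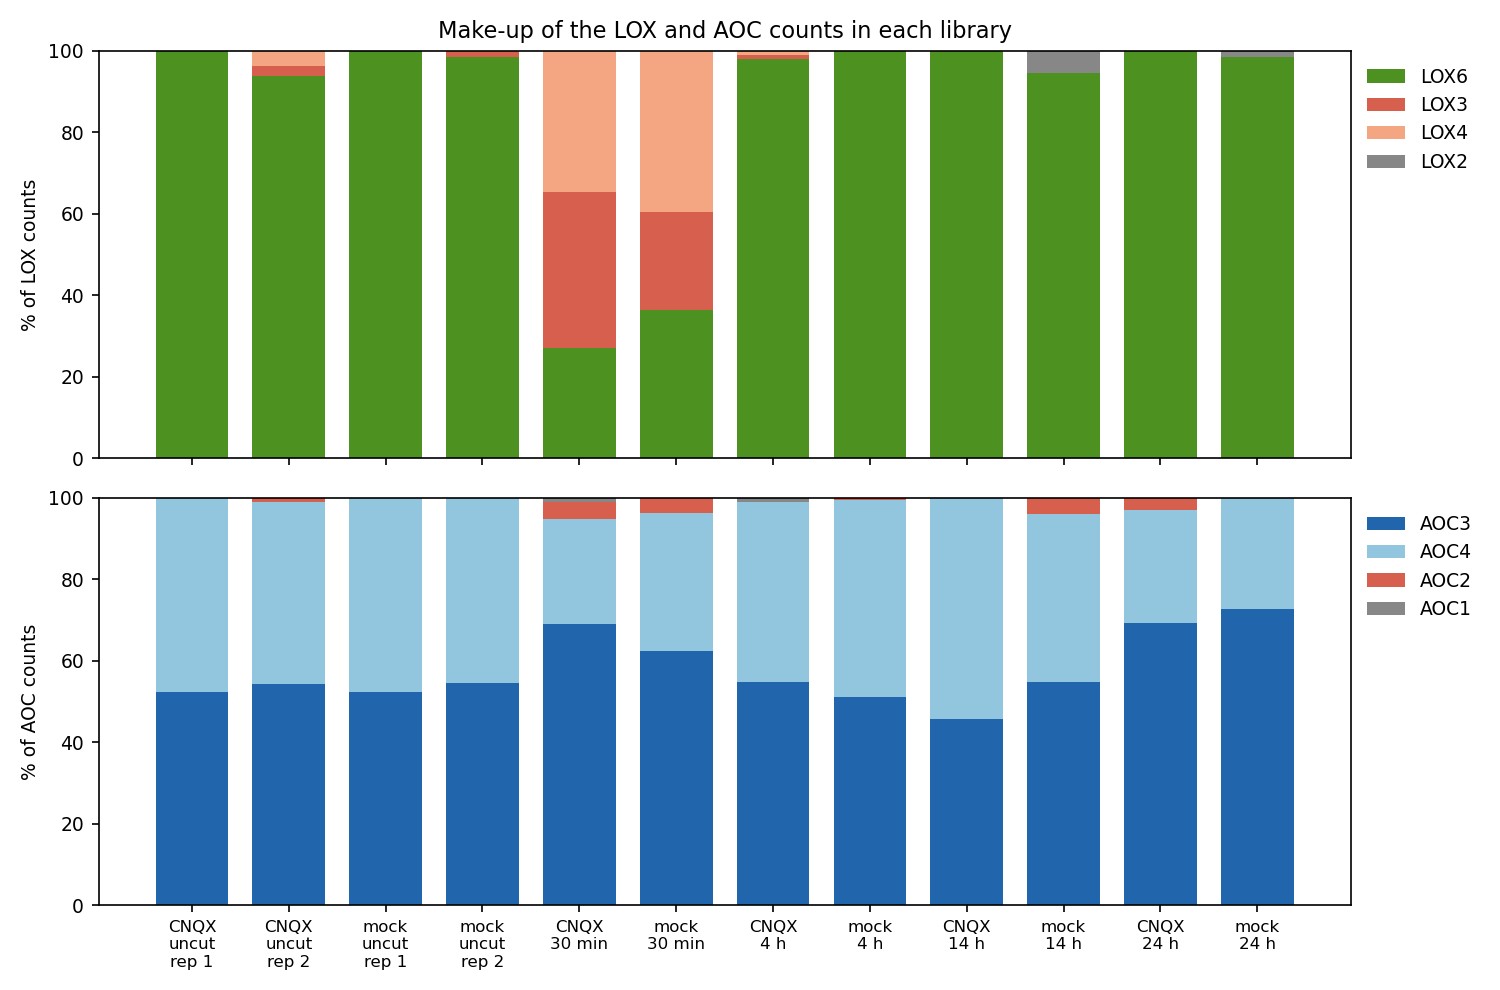
Share of each lipoxygenase gene in the LOX counts (upper panel, %) and of each cyclase gene in the AOC counts (lower panel, %) of each library. LOX3 and LOX4 hold 73.1% and 63.5% of the LOX counts in CNQX and mock at 30 min and at most 6.25% in any other library.

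AOS (AT5G42650), the single gene for allene oxide synthase, had 18.4 and 10.3 CPM in CNQX and 5.83 and 8.94 CPM in mock uncut tips. It had 197 CPM in CNQX and 106 CPM in mock at 30 min, and then 6.83 and 4.62 CPM at 4 h, 2.49 and 4.23 CPM at 14 h, and 11.6 and 12.2 CPM at 24 h. The 30 min libraries stood far above all others, and the 14 h libraries were the lowest. AOS rose by 3.85 ± 0.39 (log2, SE) at 30 min (edgeR adjusted p = 0.00021). The rise over uncut tips was 14.3-fold within the CNQX libraries (counting interval 10.7 to 19.4) and 15.0-fold within the mock libraries (10.7 to 21.6).

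OPR3 (AT2G06050), the peroxisomal reductase gene, followed the same course. It had 36.3 and 30.1 CPM in CNQX and 21.6 and 25.5 CPM in mock uncut tips. It had 278 CPM in CNQX and 262 CPM in mock at 30 min, and then 28.2 and 24.7 CPM at 4 h, 9.95 and 9.30 CPM at 14 h, and 25.4 and 31.6 CPM at 24 h. At 30 min both libraries were above all others, at 14 h both were below all others, and at 4 h both lay within the uncut range. OPR3 rose by 3.27 ± 0.29 (log2, SE) at 30 min (edgeR adjusted p = 7.96e-05), which was 8.51-fold within the CNQX libraries (7.01 to 10.4) and 11.3-fold within the mock libraries (9.32 to 13.8). AOS and OPR3 kept their call at 30 min in all 20 alternatives run for each of them.

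The 4 cyclase genes differed in level. AOC1, AOC2 and AOC3 (AT3G25760, AT3G25770 and AT3G25780) lie side by side on chromosome 3, whereas AOC4 (AT1G13280) is on chromosome 1. AOC3 had 67.4 and 23.0 CPM in CNQX and 43.2 and 33.2 CPM in mock uncut tips. It had 229 CPM in CNQX and 179.9 CPM in mock at 30 min, above every uncut value. AOC3 rose by 2.29 ± 0.38 (log2, SE; edgeR adjusted p = 0.00573), and the call was lost without the mock (adjusted p = 0.0828) or the CNQX 30 min library (adjusted p = 0.114). AOC4 had 61.1 and 18.8 CPM in CNQX and 39.1 and 27.7 CPM in mock uncut tips. At 30 min it had 86.2 CPM in CNQX and 97.4 CPM in mock, above all 4 uncut libraries, and its change of 1.35 ± 0.44 missed the threshold (edgeR adjusted p = 0.102), but passed it without replicate 1 of the CNQX uncut tips (adjusted p = 0.0371). AOC2 had 35 counts in CNQX and 19 in mock at 30 min, against 0 and 1 in CNQX and 0 and 0 in mock uncut tips, a 119-fold difference (20.4 to 4779; edgeR adjusted p = 0.0226). The AOC2 call was lost in 6 of 18 alternatives, among them leaving out the CNQX 30 min (adjusted p = 0.316), the mock 30 min (0.19972) or any uncut library other than replicate 2 of CNQX (0.0538 to 0.0658). Without that replicate its fitted log2 fold change was 7.81, against 6.53 with it. Fits without the mock or the CNQX 30 min library also called fewer of all genes. AOC1 had 8 counts in CNQX at 30 min, 2 in CNQX at 4 h and 0 elsewhere. Within the CNQX libraries it was at least 3.87-fold higher at 30 min, against 3 counts over the group of CNQX uncut tips. The mock libraries, at 0 counts at 30 min and in uncut tips, give no fold.

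The coding sequences of the tandem cyclase genes are alike, at 90.3% identity for AOC1 and AOC2, 82.4% for AOC1 and AOC3 and 82.2% for AOC2 and AOC3, so reads could be split among them. Of the 50-base stretches of their exons, 2.20% for AOC1, 0.0832% for AOC2 and 1.60% for AOC3 also occur elsewhere on the 5 chromosomes. Summed into 1 feature, the 3 genes rose by 2.38 ± 0.38 at 30 min (edgeR adjusted p = 0.00451). LOX3 and LOX4 share 80.6% of coding bases, the other lipoxygenase pairs 57.6% to 59.3%, and no 50-base stretch of LOX3 or LOX4 recurs. No annotated gene overlapped any of the 10. AOC3 held 68.9% (65.7% to 72.1%) of the cyclase counts in CNQX and 62.5% (58.1% to 66.7%) in mock at 30 min, against 52.5% and 54.4% in CNQX and 52.5% and 54.5% in mock uncut tips. At 24 h AOC3 held 69.3% (59.3% to 78.1%) in CNQX and 72.8% (62.6% to 81.6%) in mock.

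Per kilobase of exon, the order of mean levels in uncut tips was AOC4 at 27.3, AOC3 at 25.1, OPR3 at 16.6, LOX6 at 6.68 and AOS at 5.36 CPM per kb, with the other 5 genes at most 0.116. The ranges of AOC4 and AOC3, of AOC3 and OPR3, and of LOX6 and AOS overlapped over the 4 libraries, while those of OPR3 (12.7 to 21.3) and LOX6 (3.62 to 10.5) did not. At 30 min the order was OPR3 at 158, AOC3 at 123, AOS at 74.6, AOC4 at 68.3, LOX4 at 24.9, LOX3 at 21.7, LOX6 at 19.1, AOC2 at 9.44 and AOC1 at 1.32 CPM per kb. This order is of means: LOX3 was above LOX4 in CNQX (30.4 and 27.9) and below LOX6 in mock (13.1 and 18.4), so the ranges of LOX3 overlap those of both. OPR3 lay above AOC3 in both libraries, and the ranges of AOS and AOC4 overlapped.

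LOX3, LOX4, AOS and OPR3 moved together at 30 min and 4 h, and the 250 bases before their annotated starts are shown to let their promoters be compared. They are from the RefSeq TAIR10.1 genome, read 5′ to 3′ on the gene's strand, and capitals mark CACGTG, or CACATG on either strand (CATGTG when read on the gene's strand), which are motifs bound by MYC factors.
LOX3 (chr1:5977073-5977322, plus strand): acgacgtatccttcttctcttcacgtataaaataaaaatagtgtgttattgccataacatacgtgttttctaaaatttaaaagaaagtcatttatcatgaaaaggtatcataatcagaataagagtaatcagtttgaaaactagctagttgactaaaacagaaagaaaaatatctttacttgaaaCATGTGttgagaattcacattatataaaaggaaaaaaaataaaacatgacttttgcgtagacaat
LOX4 (chr1:27308263-27308512, plus strand): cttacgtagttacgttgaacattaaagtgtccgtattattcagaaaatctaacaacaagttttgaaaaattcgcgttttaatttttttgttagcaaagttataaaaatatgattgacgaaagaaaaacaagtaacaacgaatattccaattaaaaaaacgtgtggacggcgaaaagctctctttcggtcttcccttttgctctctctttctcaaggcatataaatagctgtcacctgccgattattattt
AOS (chr5:17099596-17099845, minus strand): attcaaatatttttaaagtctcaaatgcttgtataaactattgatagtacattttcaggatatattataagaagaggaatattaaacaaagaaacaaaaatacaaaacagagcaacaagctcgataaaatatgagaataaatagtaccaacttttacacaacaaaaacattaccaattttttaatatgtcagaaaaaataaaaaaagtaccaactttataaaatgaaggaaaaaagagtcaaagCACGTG
OPR3 (chr2:2362376-2362625, minus strand): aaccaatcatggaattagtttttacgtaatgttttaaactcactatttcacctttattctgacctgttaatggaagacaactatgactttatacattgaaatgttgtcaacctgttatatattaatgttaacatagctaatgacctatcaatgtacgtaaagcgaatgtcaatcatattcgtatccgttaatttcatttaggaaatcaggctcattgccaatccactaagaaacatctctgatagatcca

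LOX3 holds CATGTG, with its first base 65 bases before the start, and AOS holds CACGTG in the last 6 bases. LOX4 and OPR3 hold none of these letters in this window. The part of these motifs in the changes was not tested. Over all 10 genes, CACGTG occurs in 1 and CACATG on either strand in 3 (LOX2, LOX3 and AOC4), so that 4 hold at least 1 of them. Of 27443 windows of the same length before protein-coding genes, 6.49% hold CACGTG, 11.1% hold CACATG and 16.6% hold at least 1. A match is a description of letters, not of a bound site.

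Between 30 min and 4 h, 4 of the 8 tested members fell and 0 rose, where 0.428% of all genes were called, 0.333% lower and 0.0951% higher. Of the 4, LOX3 and LOX4 had entered the test only through their 30 min libraries, which favoured a fall. The comparison of 4 h with 30 min used 2 libraries at each time. LOX3 had 1 count in CNQX and 0 in mock at 4 h, against 239 and 71 at 30 min. LOX4 also had 1 in CNQX and 0 in mock at 4 h, against 217 and 117 at 30 min. LOX3 was 298-fold lower at 4 h (53.1 to 11811; edgeR adjusted p = 0.00768) and LOX4 321-fold lower (57.2 to 12722; adjusted p = 0.009). Both genes were back at or under the floor of 3 counts, as in uncut tips. AOS fell by 4.69 ± 0.54 (log2, SE) and OPR3 fell by 3.35 ± 0.38 (edgeR adjusted p = 0.00271 for each). AOC3 had 52.4 CPM in CNQX and 56.0 CPM in mock at 4 h, a change of -1.89 ± 0.47 that missed the threshold (adjusted p = 0.14). DESeq2 called AOC3 (adjusted p = 0.0178) and not LOX3 or LOX4. Without the CNQX 30 min library none of the 4 was called in edgeR (adjusted p = 0.128 for AOS, 0.082 for OPR3, 0.686 for LOX3 and 0.347 for LOX4), and LOX3 and LOX4 were not called without the mock 30 min (0.0951 and 0.146) or the CNQX 4 h library (0.071 and 0.0508), where their fitted log2 fold changes were -9.55 and -10.25, against -7.89 and -8.04. LOX4 was at -7.36 without the mock 4 h library and at -8.98 without the CNQX 30 min library. Fits without the CNQX 30 min, mock 30 min or CNQX 4 h library left 1 library at that time. Fewer of all genes were called in each of them than with all libraries. AOC3 was called without replicate 2 of the CNQX uncut tips (adjusted p = 0.0429).

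At 4 h, 0 of 8 members differed from uncut tips in edgeR, DESeq2 or limma-voom, and 0 had an unadjusted p under 0.05 in any of them, where 2.97% of all genes were called in edgeR, 2.59% higher and 0.386% lower. Of all 16820 genes, 3134 had an unadjusted p under 0.05 in edgeR, 2816 in DESeq2 and 3430 in limma-voom. LOX6, at 43.3 CPM in CNQX and 38.5 CPM in mock at 4 h, still lay above all 4 uncut libraries (12.1 to 35.2 CPM). Its change was 0.89 ± 0.47 (log2, SE; edgeR adjusted p = 0.329). The 4 comparisons with uncut tips share the same uncut libraries. At 14 h, OPR3 fell by 1.53 ± 0.35 (log2, SE; edgeR adjusted p = 0.00945), the only member called, where 15.7% of all genes were called, 2.5% lower and 13.2% higher. The OPR3 call was lost without the mock (adjusted p = 0.201) or the CNQX 14 h library (adjusted p = 0.103). Each of these fits left 1 library at 14 h and called fewer of all genes than the fit with all libraries. AOS had a change of -1.55 ± 0.51 (edgeR adjusted p = 0.0557), and both of its 14 h values, 2.49 and 4.23 CPM, were below all 4 uncut ones. AOS passed without replicate 1 of mock (adjusted p = 0.0481) or replicate 2 of CNQX uncut tips (0.0374), or without the mock (0.0465) or CNQX 4 h library (0.0459).

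At 24 h, LOX6 rose and AOC4 fell, where 33.4% of all genes were called, 21.3% higher and 12.1% lower. LOX6 had 37.0 CPM in CNQX and 86.5 CPM in mock at 24 h, above the 12.1 to 35.2 CPM of the uncut tips, by 1.42 ± 0.46 (log2, SE; edgeR adjusted p = 0.0322). AOC4 had 15.5 CPM in CNQX and 8.68 CPM in mock, below the 18.8 to 61.1 CPM of the uncut tips, by -1.63 ± 0.52 (edgeR adjusted p = 0.0279). Both calls leaned on the mock 24 h library that stood apart: without it LOX6 was at 0.74 (adjusted p = 0.497) and AOC4 at -1.298 (adjusted p = 0.272). Without replicate 1 of the CNQX uncut tips neither was called (0.0806 and 0.0819), and LOX6 also lost its call without replicate 1 of the mock uncut tips (0.0931), the CNQX 30 min (0.0518) or the CNQX 14 h library (0.0569). The fit without the mock 24 h library left 1 library at 24 h and called fewer of all genes. OPR3 was at 0.04 ± 0.31 and AOS at 0.23 ± 0.43 relative to uncut tips. The endodermis, photosynthetic, and xylem and phloem marker sums were above those of uncut tips at both 14 h and 24 h, but did not share a course. From 14 h to 24 h the endodermis sum went from 275 to 220 CPM in CNQX and from 571 to 115 CPM in mock. The xylem and phloem sum also fell in both treatments. The photosynthetic sum went from 78.1 to 249 CPM in CNQX and from 280 to 693 CPM in mock. The part of these tissues in the results at 14 h and 24 h was not tested.

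From 4 h to 14 h and from 14 h to 24 h, 0 of 8 members were called in edgeR, DESeq2 or limma-voom, where edgeR called 0.957% (0.898% higher, 0.0595% lower) and 0.0238% (all higher) of all genes. In edgeR, 2 members had an unadjusted p under 0.05 in the first step and 3 in the second. Of all 16820 genes, 1950 were under it in the first step and 1692 in the second. In the second step OPR3 was 1.57 ± 0.38 (log2, SE; edgeR adjusted p = 0.191) and AOS 1.78 ± 0.55 (adjusted p = 0.312) higher at 24 h, and both were higher in each treatment.

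**Figure D3:**
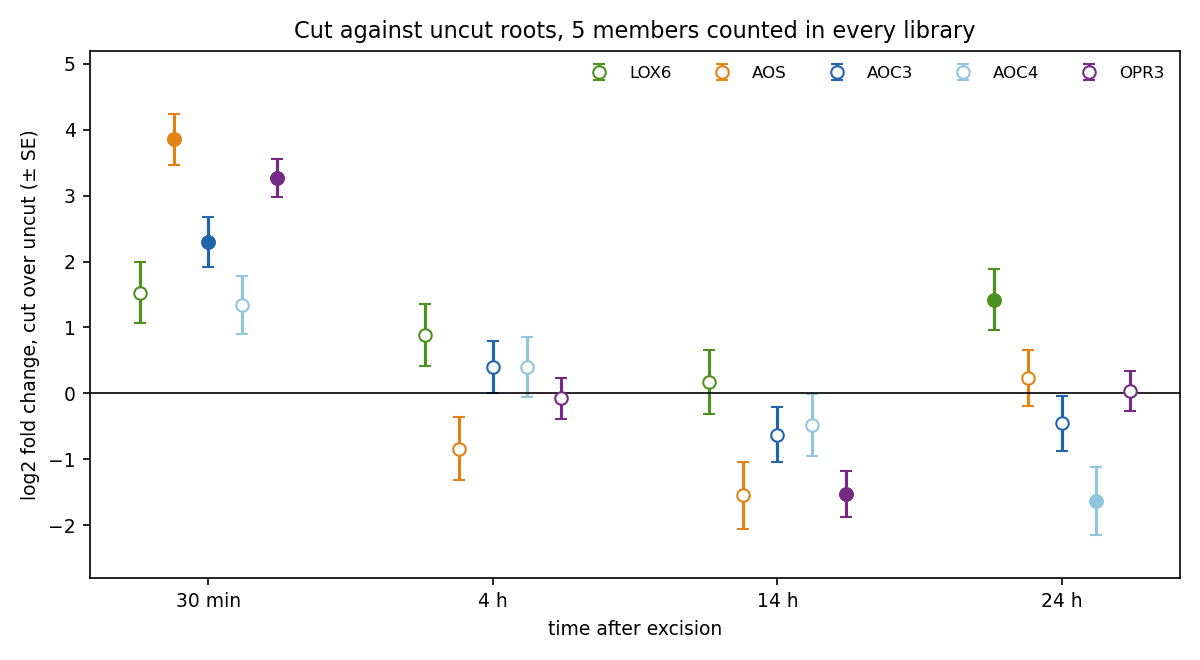
Log2 fold change of cut over uncut roots (± SE, edgeR, both treatments averaged) at each time for the 5 members counted in every library. Filled points had an adjusted p under 0.05: AOS, AOC3 and OPR3 at 30 min, OPR3 at 14 h, and LOX6 and AOC4 at 24 h.

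CNQX was compared with mock to ask whether the antagonist alters the response, and 0 of 8 members were called in any of the 5 CNQX comparisons: in uncut roots, in cut roots, in the difference between these, at the early times (30 min, 4 h) and at the late times (14 h, 24 h). The share of all genes called was 0 in each by edgeR. At the late times DESeq2 called 0.809% and limma-voom 0.0297% of all genes, and both called 0 in the other CNQX comparisons. No member had an unadjusted p under 0.05 in edgeR or DESeq2, and limma-voom, with 0 called, had 1 in cut roots and 1 early. Of all 16820 genes, 184 to 1669 were under it in these comparisons in edgeR and 114 to 1372 in DESeq2. In limma-voom 571 were under it in cut roots and 156 early. AOS and OPR3 were higher in both CNQX than in both mock libraries of uncut tips, with no overlap. These were 2 of the 8 tested members, and 14.2% of all genes tested were separated in this direction and 15.5% in the other. Summed counts of AOS in uncut tips were 1.94-fold higher with CNQX (counting interval 1.26 to 3.004), and those of OPR3 1.41-fold (1.09 to 1.82). The fitted differences were 0.96 ± 0.50 for AOS and 0.49 ± 0.36 for OPR3 (log2, SE; edgeR adjusted p = 0.978 for each). The other members overlapped between the treatments.

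At 30 min, where each treatment has 1 library, LOX3 was 2.32-fold higher with CNQX than with mock (1.77 to 3.06), AOS 1.85-fold (1.56 to 2.20), LOX4 1.28-fold (1.01 to 1.61) and AOC3 1.27-fold (1.11 to 1.46). OPR3 was at 1.06 (0.941 to 1.19), LOX6 at 1.07 (0.836 to 1.38) and AOC4 at 0.886 (0.722 to 1.09). These ratios compare libraries and not conditions. In the early fit, which sets them against the spread between libraries, AOS was at 0.77 ± 0.47 and LOX3 at 1.304 ± 0.811 (log2, SE; edgeR adjusted p = 1 for each). Within each treatment, the rise at 30 min over its own uncut tips was 173-fold (47.5 to 1439.7) for LOX3 in CNQX and 234-fold (40.6 to 9352) in mock. LOX4 was 105-fold higher (35.4 to 513) in CNQX and at least 128-fold higher in mock. The mock values of LOX3 and LOX4 cannot be ranked: the first is set against 1 uncut count, the second, with 0, against the floor of 3. The difference between the CNQX effects in cut and uncut roots was -0.67 ± 0.62 for AOS and -0.48 ± 0.44 for OPR3 (log2, SE; edgeR adjusted p = 1 for each). Cut roots had 1 h of CNQX before the cut and uncut roots 14 h, so excision and exposure cannot be told apart in it. At 24 h LOX6 in the CNQX library was at 0.428 of the mock library (0.321 to 0.562), and the mock 24 h library was the one apart. AOC4 was 1.94-fold higher with CNQX at 14 h (1.31 to 2.91) and 1.78-fold at 24 h (1.00 to 3.18). In the late fit LOX6 was at -0.82 ± 0.54 (adjusted p = 0.643) and AOC4 at 0.90 ± 0.53 (adjusted p = 0.603).

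**Figure D4:**
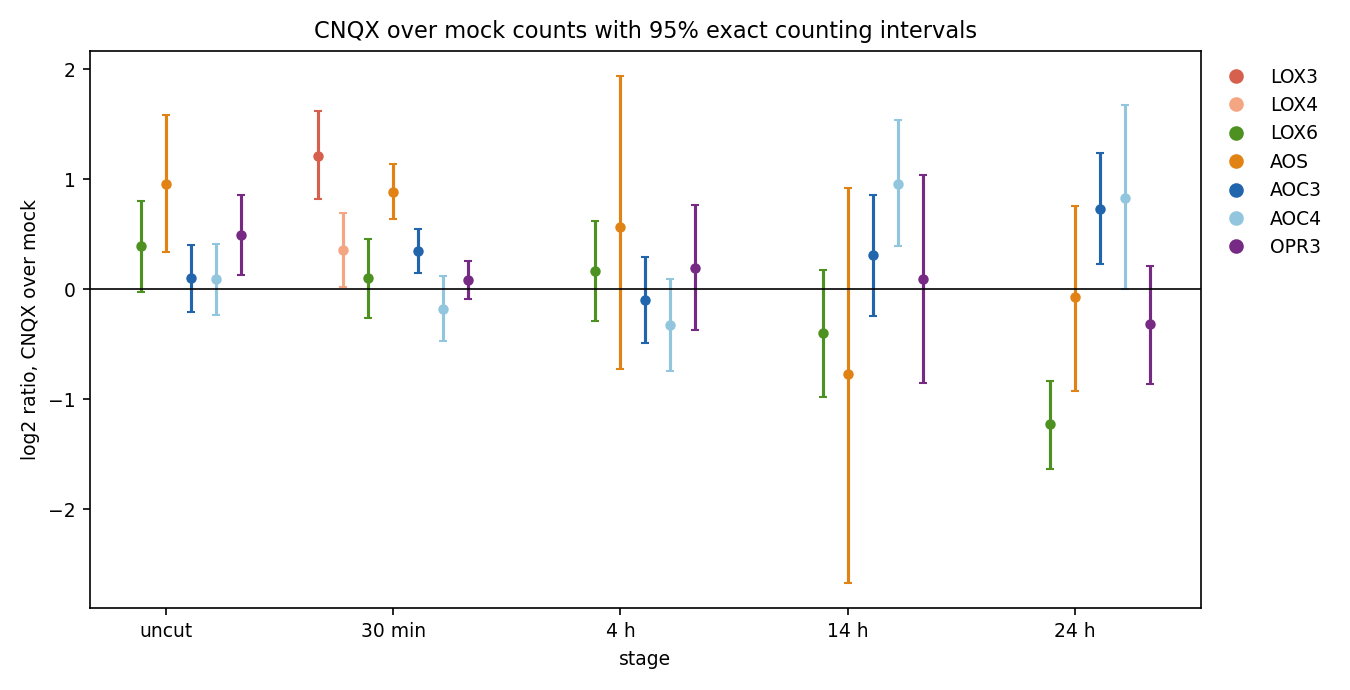
Log2 ratio of CNQX over mock counts, scaled to library size, with 95% exact counting intervals, by stage (2 libraries per treatment in uncut roots, 1 at each time). LOX3 and AOS lie above 0 at 30 min and LOX6 below 0 at 24 h, at 0.428 of mock; the intervals cover counting error only.

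Other genes of the pathway were counted from lists made with earlier results of these data known. Of 9 genes of late synthesis and transport, all tested, 2 rose and 0 fell at 30 min, with a median of 0.67. Of all genes, 3.23% were higher and 1.2% lower at that time. The 2 that rose were OPCL1, the CoA ligase gene for the product of OPR3, at 3.70 ± 0.32 (log2, SE; edgeR adjusted p = 6.63e-05), and the peroxisomal oxidase gene ACX1 at 1.47 ± 0.34 (adjusted p = 0.0307). OPCL1 fell by 3.51 ± 0.41 between 30 min and 4 h (adjusted p = 0.00273), as LOX3, LOX4, AOS and OPR3 did. The OPR3 relatives OPR1 and OPR2 had changes of 1.14 ± 0.42 and 0.90 ± 0.38 at 30 min (adjusted p = 0.146 and 0.198). At 24 h 2 of the 9 were higher and 0 lower, beside 21.3% and 12.1% of all genes. OPR2 was up by 1.90 ± 0.37 and ACX1 by 1.55 ± 0.34 (adjusted p = 0.00195 and 0.00452).

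Of 7 genes for substrate supply and other lipoxygenases, 5 were tested and 0 were called at 30 min in edgeR, DESeq2 or limma-voom, with 2 at an unadjusted p under 0.05 in each. These 2 in edgeR were the desaturase gene FAD7 at 1.24 ± 0.44 and LOX5 at 1.76 ± 0.74 (log2, SE). Of all 16820 genes, 3380 were under that p at 30 min in edgeR, 3083 in DESeq2 and 3585 in limma-voom. LOX1, a lipoxygenase gene outside this pathway, rose by 2.65 ± 0.50 at 14 h and 4.02 ± 0.50 at 24 h (edgeR adjusted p = 0.00319 and 9.28e-05), and FAD3 fell by 1.03 ± 0.37 at 24 h (adjusted p = 0.0462). Of 8 genes for conjugation, perception and transcription factors, 7 were tested and 1 rose at 30 min, beside 3.23% of all genes. It was JAM1, a gene for a repressor of jasmonate responses, at 3.39 ± 0.52 (adjusted p = 0.0037). MYC2, a main activator of the response, was at 1.19 ± 0.33 (adjusted p = 0.0605) and the conjugating enzyme gene JAR1 at 1.07 ± 0.35 (adjusted p = 0.106). Between 30 min and 4 h JAM1 fell by 3.91 ± 0.70 (adjusted p = 0.0272) and MYC2 fell by 2.18 ± 0.41 (adjusted p = 0.0429). At 24 h, when 21.3% of all genes were higher and 12.1% lower, 2 of the 7 rose, JAR1 by 1.82 ± 0.35 and MYC4 by 1.31 ± 0.41 (adjusted p = 0.00185 and 0.0279), and 1 fell: NINJA, the gene for the adaptor of the JAZ repressors, fell by 1.58 ± 0.34 (adjusted p = 0.00379).

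The mean profile of the 8 tested members over the 12 libraries was most like those of AT2G26380, JAZ10, WRKY46, TAT3, OPCL1, AT3G51450, AT4G29780 and MSRB8, with Pearson's r of 0.964 to 0.975. The points share library and depth, and in each of the 8 genes both 30 min libraries held the highest values. The genes were picked for likeness to a profile that peaks at 30 min, so these peaks follow from the choice. JAZ10, a jasmonate repressor gene, had 159.9 CPM in CNQX and 128 CPM in mock at 30 min, against 3.18 and 1.88 CPM in CNQX and 1.46 and 1.70 CPM in mock uncut tips. OPCL1 had 201 CPM in CNQX and 214 CPM in mock at 30 min, against 15.9 and 12.2 CPM in CNQX and 16.9 and 19.2 CPM in mock uncut tips. Among the members, the profiles of LOX3 and LOX4 had an r of 0.99 and those of AOS and OPR3 0.97, while LOX6 and AOC4 were at -0.12. LOX3 and LOX4 had at most 3 counts in any library outside 30 min. Their r therefore rests on the 30 min libraries, through which both passed the count filter.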

How the data were processed

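RNA-seq counts per locus, deposited as raw counts with no normalization, were used for 12 libraries. The submitters' processing notes name HISAT2, DESeq2 and TAIR10, and the sources used here do not give the counting tool or its strand setting. The files carry no coordinates. Loci were matched by tag to the RefSeq TAIR10.1 annotation (32548 of 32833), from which all sequences and lengths come. The deposited joint table and the single files hold the same counts. Samples were grouped by their labels, and the series description's 16 h was read as the samples' 24 h. Reads assigned to loci were 11.3% to 25.5% of reads, reads with no feature 18.4% to 29.4% and reads not unique 37.6% to 65.3%, and only assigned counts entered library sizes.

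In R 4.3.3, edgeR 4.0.16 fitted genes kept by a minimum count of 10 (16820), scaled by TMM, with stage and the CNQX effects in uncut and cut roots (7 coefficients, 5 residual degrees of freedom), or early and late CNQX effects (8 coefficients, 4 residual). P-values from the quasi-likelihood test were Benjamini-Hochberg adjusted over all genes, threshold 0.05. DESeq2 1.42.0 and limma 3.58.1 were alternatives, along with upper-quartile scaling, other filters, summed cyclase genes, a replicate block and leaving out each library. SE was taken as the absolute log2 fold change divided by the root of the F statistic. CPM are per effective library size. Ratios carry exact 95% intervals. The fit was tested on simulated data, whose changes were smaller than those of LOX3, LOX4 and AOC2 and did not start near 0 counts. The simulation therefore does not cover these genes. Named genes were all members, up to 4 per pathway list and comparison by lowest p, and the 8 genes of most similar profile with an average log2 CPM of at least 2. Identity was computed on coding sequence, not on proteins. Members and lists were chosen with earlier results of these data known.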

Additional observations from a re-analysis of the deposited data

Results flagged for a closer look

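Among the 4 uncut libraries, 1 library stood far above the rest for LOX4, at 1.41 CPM in replicate 2 of the CNQX uncut tips (3 counts, with 0 in the other 3 libraries), and for AOC2, at 0.470 CPM in the same library (1 count). They stand here because the gap to the nearest other library exceeded Dixon's 95% critical value for a group of 4. Chance flags about 1 in 20 groups of continuous values, but with 0 in the other 3 libraries any single count passes, so neither shows more than the presence of a count. Both are at or under the floor of 3.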

How the results depend on the processing

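Of 1358 alternatives over 69 member results, 1306 kept their call or lack of one, 33 lost it, 19 gained it and 0 reversed, while 54 changed sign where neither value was called. Leaving out a library moved the number of members called to between 2 and 7 at 30 min, 0 and 2 at 14 h, 0 and 2 at 24 h and 0 and 5 at 4 h against 30 min. Leaving out libraries gave 0 called members throughout for 4 h against uncut, for 14 h against 4 h, for 24 h against 14 h and in the 5 CNQX comparisons. Where 1 library was left at a time, it was assumed to vary like the others. The share of all genes called moved as well. In fits that kept both libraries of each time compared, it was 2.26% to 6.91% at 30 min and 11.3% to 18.1% at 14 h. It was 27% to 35% at 24 h and 0.267% to 0.722% at 4 h against 30 min. DESeq2 called 4 members at 30 min and 3 at 4 h against 30 min. It called 6.49% and 1.15% of all genes there, beside 4.43% and 0.428% in edgeR. At 14 h, upper-quartile scaling called 2, as did no filter other than 1 count, beside 15.1% and 15.3% of all genes. LOX6 at 30 min gained its call with no filter (adjusted p = 0.00399), and AOC4 likewise (adjusted p = 0.012). With no filter, 7.02% of all genes were called at 30 min.

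Replicate numbers pair only the uncut libraries: replicate 1 minus 2 correlated at 0.357 across 16820 genes between mock and CNQX, and with only 2 pairs the numbers were not taken to pair samples. With the replicate block, 6 members were called at 30 min, where LOX6 gained its call (2.37, adjusted p = 0.0107) and AOC2 lost it (adjusted p = 0.0538), and 1 at 4 h (LOX6, 1.73, adjusted p = 0.0395), 1 at 14 h, 2 at 24 h and 5 at 4 h against 30 min, and 0 in the CNQX comparisons. Of all genes, the fit with the block called 3.9% at 30 min, 4.39% at 4 h, 15.5% at 14 h and 33.4% at 24 h. It called 0.904% at 4 h against 30 min and 0 to 0.0476% in the CNQX comparisons. Every cut library has the number 1, and the blocked contrast therefore rests on the uncut libraries of that number. Depth limits LOX2, LOX3, LOX4, AOC1 and AOC2 outside 30 min, where they were at a few counts at most.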
